A study of Mus musculus with 9 samples.

Results

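Eosinophil-associated and angiogenin ribonucleases were followed in mouse bone marrow (BM)-derived Mϕs by RNA-seq. The set was 7 genes of the RNase A superfamily, Rnase2a, Ear1, Ear2, Ear6, Ear10, Rnase4 and Ang, and all 7 were found by symbol among the 53379 genes of the deposited table. They were selected on their FPKM in these same control, IL-4 and IL-6 libraries, known from earlier work on the table, so the differences between groups for these 7 genes are descriptions and carry no test. BM cells from C57BL/6 mice were grown for 3 days in 10 ng/ml CSF-1 (also written MCSF) and then for 4 days in CSF-1 at the same dose, either alone (control), with 10 ng/ml IL-4 or with 100 ng/ml IL-6. There were 3 libraries per group, from 3 mice, and CSF-1 was present in every group. The written methods of the study give the IL-4 dose otherwise than the sample labels do, and its legends give another dose and a shorter time for both cytokines. The labels were followed here. The cultures came from unsorted marrow, so other marrow cells could remain in them.

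RNase A enzymes are small secreted proteins that cut RNA. The eosinophil-associated ribonucleases (Ears) are a rodent family that has multiplied by gene duplication, is related to the eosinophil granule proteins of humans, and includes members that attract dendritic cells or act against viruses. Angiogenin (Ang) promotes blood vessel growth and cuts transfer RNA under stress, while Rnase4 lies in the same locus as Ang and shares its promoters. IL-4 signals mainly through STAT6 and IL-6 mainly through STAT3, and ribonuclease genes of this family are known among the genes of alternatively activated Mϕs.

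IL-4-treated Mϕs differed from control in opposite directions within this one family. Rnase2a and Ear2 were higher in all 3 IL-4 libraries than in any control library, by 2602-fold and 65.7-fold in mean FPKM (fragments per kilobase of exon and per 1000000 fragments). Ear1, Ear6, Rnase4 and Ang were lower in all 3 IL-4 libraries than in any control library, by 4.37-fold, 3.48-fold, 4.10-fold and 2.65-fold. Ear10 was at or near 0. In IL-6-treated Mϕs, Rnase2a was 3.18-fold higher than in control, and the other 5 detected members were lower.

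All 7 members lie on chromosome 14 of GRCm38, in 2 separate stretches. Ear1 (chr14:43818765-43875517, minus strand), Ear10 (chr14:43922720-43923559, minus strand) and Ear2 (chr14:44102654-44103534, plus strand) form the first stretch. Rnase4 (chr14:51091077-51106151, plus strand), Ang (chr14:51091150-51102009, plus strand), Rnase2a (chr14:51255262-51256112, minus strand) and Ear6 (chr14:51853699-51854643, plus strand) lie in the second. Each is annotated as protein coding, and the values below count fragments over all of its exons, untranslated parts included. Rnase2a and Ear2, the pair that was higher with IL-4, thus came from different stretches, and Ear1, which was lower, lies in the same stretch as Ear2.

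How far the members resemble each other decides how well short fragments can be assigned to one of them. The first 150 coding bases of Rnase2a and of 4 relatives are shown because their levels went different ways although the letters are close. They were read from GENCODE M21 transcripts (GRCm38), and capitals mark each base that differs from the aligned base of Rnase2a.
Rnase2a: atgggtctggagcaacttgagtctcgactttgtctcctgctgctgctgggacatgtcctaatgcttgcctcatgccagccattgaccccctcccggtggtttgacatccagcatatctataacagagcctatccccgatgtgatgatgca
Rnase2b: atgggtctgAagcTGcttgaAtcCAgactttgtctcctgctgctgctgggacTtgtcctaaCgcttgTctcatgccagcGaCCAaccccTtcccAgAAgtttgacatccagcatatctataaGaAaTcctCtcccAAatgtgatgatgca
Ear2: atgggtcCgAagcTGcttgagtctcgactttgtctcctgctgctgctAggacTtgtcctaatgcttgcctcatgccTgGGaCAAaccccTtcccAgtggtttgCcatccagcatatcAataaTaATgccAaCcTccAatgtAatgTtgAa
Ear1: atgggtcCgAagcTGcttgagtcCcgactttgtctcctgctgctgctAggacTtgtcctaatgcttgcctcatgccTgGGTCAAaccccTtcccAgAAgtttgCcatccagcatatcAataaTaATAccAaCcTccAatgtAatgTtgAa
Ear6: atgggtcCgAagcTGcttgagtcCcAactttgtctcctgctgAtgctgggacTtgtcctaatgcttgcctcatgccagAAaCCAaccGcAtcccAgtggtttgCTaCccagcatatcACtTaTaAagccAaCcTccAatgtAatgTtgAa
In this stretch Rnase2b differed from Rnase2a at 23 bases, Ear2 at 26, and Ear1 and Ear6 at 31 each. Many of the capitals of Ear1 and Ear2 fall at the same places.

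Over whole coding sequences, Ear2 shared 97% of aligned bases with Ear10 and 95.7% with Ear1, and its longest identical runs with them were 185 and 96 bases. Ear6 was 88.2% identical to Ear2. Rnase2a stood further off, 80.2% identical to Ear2 and 83.7% to Rnase2b, its closest relative in the family. Rnase4 and Ang were 60.6% identical to each other.

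**Figure D1:**
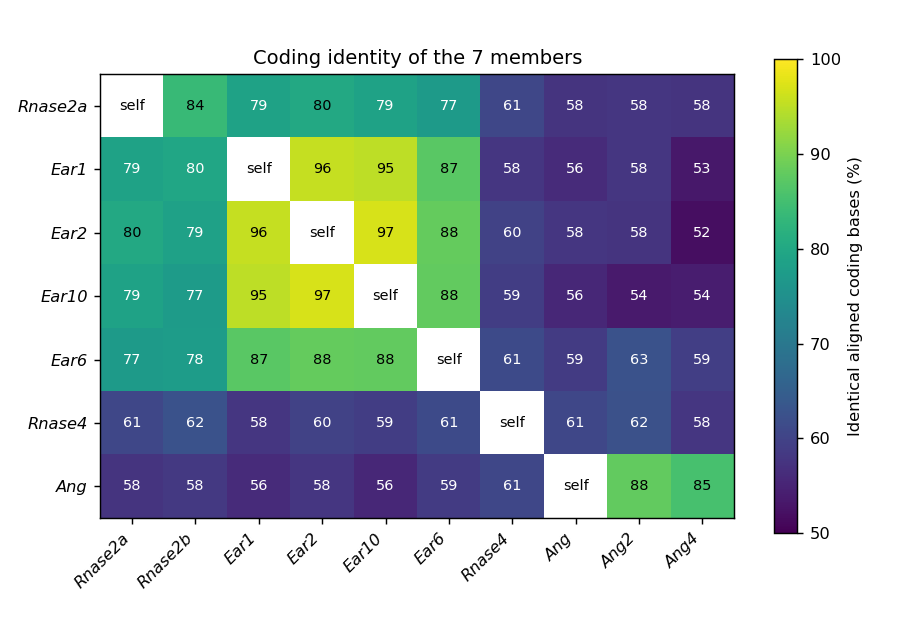
Percent of aligned coding bases that are identical, between each of the 7 members (rows) and the members and 3 relatives (columns), as colour and as rounded numbers. Ear1, Ear2 and Ear10 form a block above 95%, and Rnase2a, Rnase4 and Ang lie apart from it.

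These likenesses bear unevenly on the values. No stretch of 50 bases of Rnase2a or of Rnase2b occurred in any other annotated gene. Of the 50-base stretches of Ear2, 41.5% occurred in another gene, most often Ear10, and of those of Ear1, 57.4% did, most often the pseudogene Ear-ps9. For Ear10 the share was 39.9%, and for Ear6 it was 0.954%. With 100-base stretches the shares were 13.9% for Ear2, 23.9% for Ear1 and 24.2% for Ear10. How the counting treated fragments that match several genes is not given in the sources used here, so the levels of Ear1, Ear2 and Ear10 are uncertain to that extent, while Rnase2a, Rnase2b and Ear6 are little touched. Rnase4 and Ang have 219 exonic bases in common, at chr14:51091150-51091253 and chr14:51096359-51096473, which is 13.4% of the exonic bases of Rnase4 and 18.2% of those of Ang. Fragments from these shared first exons cannot be given to one of them.

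The libraries held 29988160 to 39909571 fragments each, read back from the FPKM steps. Socs3, a feedback inhibitor induced by STAT3, passed the test with IL-6 (log2 fold change of 5.12, limma adjusted p = 3.022e-05), and Retnla, a secreted protein of IL-4-treated Mϕs, passed with IL-4 (11.69, limma adjusted p = 1.6e-06), so both checks went with the group labels. Retnla also passed with IL-6 against control, at a smaller size (2.44, limma adjusted p = 0.004496). That call ended with a term for the 2 sets of libraries described below (2.17, limma adjusted p = 0.1724). All 6 Mϕ marker genes listed (Adgre1, Csf1r, Cd68, Itgam, Fcgr1 and Mertk) were present in every library, with summed levels of 2744 to 2760 FPKM in control, 1293 to 1527 with IL-4 and 2120 to 2210 with IL-6. Itgam went the other way, with 33.7 to 36.8 FPKM in control, 37.2 to 72.3 with IL-4 and 62.3 to 75.1 with IL-6. With IL-4 the other genes of this list were below every control. With IL-6 only Cd68 was, and Adgre1, Csf1r, Fcgr1 and Mertk overlapped control. The libraries fell into 2 sets by 13 intestinal Paneth and goblet cell genes. Every control library and IL-4 #1 had all 13 above 3 fragments, and the remaining 5 libraries had only 2 or 3 of them above it. IL-4 is compared with control within the first set through 1 library only, IL-6 with IL-4 within the second through 5 libraries, and IL-6 with control in neither. The 3 comparisons share libraries: the same controls serve IL-4 and IL-6.

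Rnase2a, also called Ear11 and known as a chemoattractant of Mϕs, was the member with the widest range. It had 0.706, 0.580 and 0.496 FPKM in control #1 to #3, 1572, 1330 and 1733 FPKM in IL-4 #1 to #3, and 1.37, 2.17 and 2.12 FPKM in IL-6 #1 to #3. The 3 groups did not overlap, with control lowest, IL-6 above it and IL-4 far above both. In fragments, control had 12 to 17, IL-6 had 33 to 49 and IL-4 had 27822 to 47714. Among all genes of a library, Rnase2a ranked 18th, 24th and 22nd by FPKM in the IL-4 libraries, against places 11953 to 12553 in control.

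The log2 fold change of Rnase2a with IL-4 was 11.12 (SE 0.206), on the scale of log2(FPKM + 0.1), which understates the change of a gene that is low in one group. Among 12824 genes with a mean of at least 0.5 FPKM, only that of Retnla was larger in size. Against IL-6, IL-4 was 818-fold higher. Within the second set of libraries, the mean of IL-4 #2 and #3 was 810-fold that of IL-6, and within the first set IL-4 #1 was 2647-fold above the mean of the controls. These are different comparisons, and that within the first set rests on IL-4 #1 alone, so neither repeats the other. With IL-6 the log2 fold change against control was 1.50 (SE 0.206), from 0.594 ± 0.106 to 1.89 ± 0.450 FPKM (SD, n = 3 each), and no set of libraries holds both groups.

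Ear2, one of the eosinophil-associated ribonucleases, was the other member that was high with IL-4. It had 6.02, 12.3 and 12.6 FPKM in control #1 to #3, 865, 537 and 629 FPKM in IL-4 #1 to #3, and 3.51, 5.24 and 5.12 FPKM in IL-6 #1 to #3. Every IL-4 library was above every control library, and every IL-6 library was below every control library. The highest IL-6 value lay close under the lowest control value. The log2 fold change was 6.07 (SE 0.319) with IL-4, the 16th in size among the 12824 genes, and −1.09 (SE 0.319) with IL-6. In a fit with a term for the 2 sets, the value with IL-6 was −0.51 (SE 0.553), smaller than its standard error. No set of libraries holds both IL-6 and control, so the lower level of Ear2 with IL-6 cannot be told apart from the sets. Within sets of libraries, IL-4 #1 was 84.0-fold above the controls, and IL-4 #2 and #3 were 126-fold above IL-6.

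The balance between both genes also differed between groups. Ear2 was above Rnase2a in each control library, by 8.52-fold, 21.2-fold and 25.4-fold, and in each IL-6 library, by 2.56-fold, 2.41-fold and 2.41-fold, all per length. In the IL-4 libraries the order was the reverse, and Rnase2a was 1.82-fold, 2.48-fold and 2.75-fold above Ear2.

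**Figure D2:**
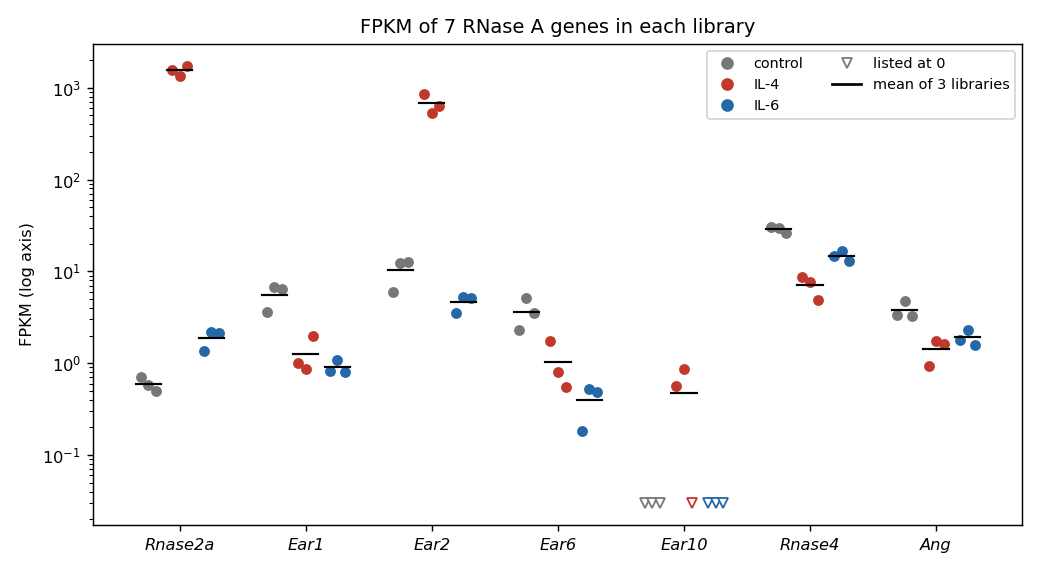
FPKM on a log axis (vertical) of the 7 members (horizontal) in each of the 9 libraries, coloured by group, with black lines at group means and open triangles for values listed at 0. Rnase2a and Ear2 in IL-4 libraries sit between 537 and 1733 FPKM, and no other value is above 30.8 FPKM.

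Ear1, which lies in the same stretch as Ear2 and has nearly the same coding sequence, went the other way with IL-4. It had 3.57, 6.76 and 6.36 FPKM in control #1 to #3, 1.00, 0.859 and 1.96 FPKM in IL-4 #1 to #3, and 0.825, 1.09 and 0.803 FPKM in IL-6 #1 to #3. Both treated groups were below all controls and overlapped each other. The log2 fold change was −2.08 (SE 0.347) with IL-4 and −2.45 (SE 0.347) with IL-6. Ear2 was 1.68 to 1.98 times Ear1 in the control libraries, 4.25 to 6.37 times in the IL-6 libraries, and 321 to 864 times in the IL-4 libraries. Ear1 was thus low in the libraries in which Ear2 had 11704 to 21265 fragments and Ear1 had 19 to 57. Whether fragments of Ear2 were counted as Ear1 was not tested.

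Ear6 is a further eosinophil-associated ribonuclease, and few of its bases are shared with other genes. It had 2.30, 5.08 and 3.50 FPKM in control #1 to #3, 1.76, 0.803 and 0.557 FPKM in IL-4 #1 to #3, and 0.182, 0.518 and 0.482 FPKM in IL-6 #1 to #3. The groups did not overlap, with control highest and IL-6 lowest, but IL-4 #1 came near the lowest control and IL-4 #3 near the highest IL-6 library. The log2 fold change was −1.78 (SE 0.484) with IL-4 and −2.93 (SE 0.484) with IL-6, and in a fit with a term for the 2 sets they were −0.93 and −1.65. Within the first set IL-4 #1 was 2.06-fold below the mean of the controls, and within the second set IL-4 was 1.72-fold above IL-6.

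Ear10, the relative closest to Ear2 in sequence, was hardly detected. It was listed at 0 in all control and IL-6 libraries and in IL-4 #3, and had 13 and 18 fragments, or 0.561 and 0.876 FPKM, in IL-4 #1 and #2. The groups overlapped at 0, and a count of 0 allows up to 3 fragments, which is 0.111 to 0.148 FPKM depending on the library. In the libraries where it was seen, its fragments were 0.0611% and 0.154% of those of Ear2, with which it shares most of its repeated stretches. Its mean of 0.160 FPKM was below the filter of 0.5 FPKM, which the other 6 members passed.

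Rnase4 and Ang, which are read from one locus and encode an RNase of broad tissue expression and angiogenin, were both lower with each cytokine. Rnase4 had 30.8, 29.6 and 26.4 FPKM in control #1 to #3, 8.67, 7.58 and 4.91 FPKM in IL-4 #1 to #3, and 14.7, 16.6 and 13.0 FPKM in IL-6 #1 to #3. The 3 groups did not overlap, and IL-6 lay between control and IL-4. The log2 fold change was −2.06 (SE 0.210) with IL-4 and −0.97 (SE 0.210) with IL-6. In a fit with a term for the 2 sets they were −1.72 (SE 0.259) and −0.47 (SE 0.330). Within the first set of libraries IL-4 #1 was 3.34-fold below the controls, and within the second IL-6 was 2.36-fold above IL-4.

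Ang had 3.38, 4.72 and 3.27 FPKM in control #1 to #3, 0.925, 1.76 and 1.61 FPKM in IL-4 #1 to #3, and 1.81, 2.32 and 1.60 FPKM in IL-6 #1 to #3. Both treated groups were below all controls, and they overlapped each other. The log2 fold change was −1.37 (SE 0.271) with IL-4 and −0.95 (SE 0.271) with IL-6, and in a fit with a term for the 2 sets they were −1.91 and −1.75. Within the first set IL-4 #1 was 4.10-fold below the mean of the controls, and within the second IL-6 was 1.14-fold above IL-4. Rnase4 was 6.27 to 9.11 times Ang in the control libraries, 7.15 to 8.13 times in the IL-6 libraries and 3.06 to 9.37 times in the IL-4 libraries, with the lowest ratio in IL-4 #3.

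**Figure D3:**
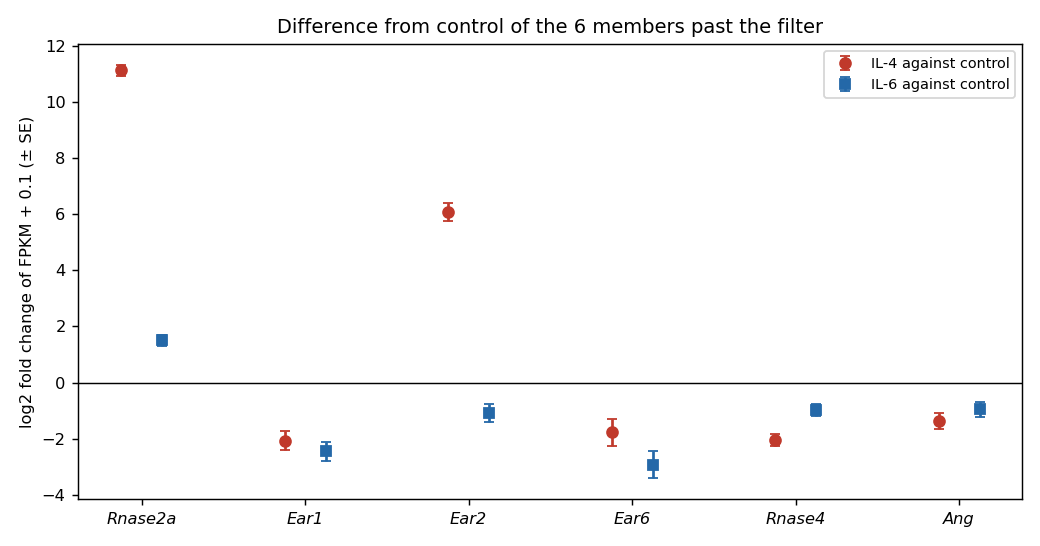
Difference from control, as log2 fold change of FPKM + 0.1 with its standard error (vertical), for the 6 members that passed the filter (horizontal), with IL-4 as circles and IL-6 as squares. Rnase2a and Ear2 with IL-4 stand at 11.12 and 6.07, Rnase2a with IL-6 at 1.50, and all other points are below 0.

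Counted over the 7 members, 6 were at least 2-fold apart between IL-4 and control with no overlap of libraries, 2 higher and 4 lower. Of the 12824 genes past the filter, 16.6% met the same description, 5.83% higher and 10.7% lower. Between IL-6 and control 4 members met it, against 9.17% of all genes (5.76% higher and 3.41% lower), with Rnase2a higher and Ear1, Ear2 and Ear6 lower. Rnase4 and Ang did not overlap either but were just under 2-fold lower, by 1.96-fold and 1.99-fold. Between IL-6 and IL-4 it was 4 members, against 23.9% of all genes (15.9% higher and 8.02% lower), with Rnase2a, Ear2 and Ear6 lower and Rnase4 higher with IL-6. Since the members were chosen with these values known, nothing is read from the shares. The medians of the log2 fold changes of all tested genes were −0.20, 0.00 and 0.22 in these 3 comparisons, and every direction given here for the 6 members was kept when the libraries were rescaled to medians near 0.

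The order of the levels, compared per length, differed between groups. In control Mϕs it was Rnase4, Ear2, Ear1, Ang, Ear6, Rnase2a and Ear10 by mean FPKM. Of these, Rnase4 was above all libraries of the next gene, while Ear2 and Ear1, Ear1 and Ang, and Ang and Ear6 overlapped. In IL-4-treated Mϕs the order was Rnase2a, Ear2, Rnase4, Ang, Ear1, Ear6 and Ear10, and the first 4 were separated from each other while the last 4 overlapped as neighbours. In IL-6-treated Mϕs it was Rnase4, Ear2, Ang, Rnase2a, Ear1, Ear6 and Ear10, in which the neighbours Ang and Rnase2a overlapped and the others did not.

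The summed FPKM of the 7 members was 46.8 to 59.0 in control, 1879 to 2450 with IL-4 and 22.4 to 27.9 with IL-6. With IL-4, Rnase2a made up 69.3% ± 4.64 of it and Ear2 30.1% ± 4.60 (SD, n = 3), which left under 1% for the other members together. In control Mϕs Rnase4 held 55.4% ± 9.07, Ear2 19.2% ± 5.72 and Ear1 10.4% ± 2.41 (SD, n = 3). In IL-6-treated Mϕs Rnase4 held 60.4% ± 4.76 and Ear2 18.9% ± 3.22 (SD, n = 3), while Rnase2a held 7.70% ± 1.53, against 1.14% ± 0.316 in control. Ear1 held 3.69% ± 0.217 and Ear6 1.59% ± 0.678 with IL-6, against 10.4% and 6.73% ± 1.85 in control (SD, n = 3). The shares of Rnase2a, Ear1 and Ear6 did not overlap between IL-6 and control, while Rnase4 was the largest part in both.

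**Figure D4:**
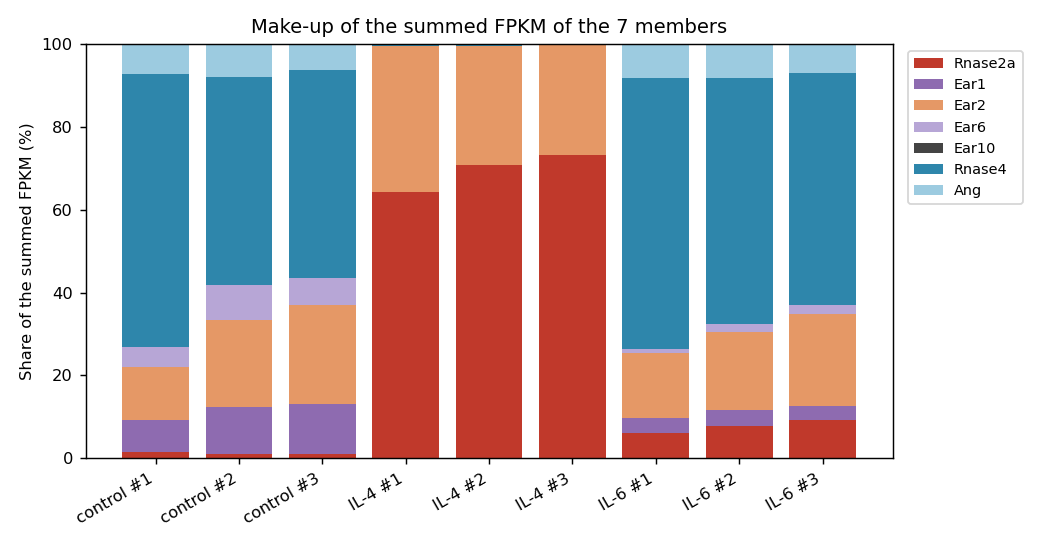
Share of the summed FPKM of the 7 members in percent (vertical, stacked) in each of the 9 libraries (horizontal). Rnase2a and Ear2 fill nearly all of the 3 IL-4 bars, and Rnase4 is the broadest part of the control and IL-6 bars, with means of 55.4% and 60.4%.

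The windows around the start sites are printed for Ear2, Ear1 and Rnase2a, since Ear1 and Ear2 differed in direction with IL-4. They run from 250 bases before to 50 after the start, 5′ to 3′ on the gene's strand, from RefSeq on GRCm38.p6, at chr14:44102404-44102703 (Ear2), chr14:43819590-43819889 (Ear1) and chr14:51256063-51256362 (Rnase2a). Capitals in Ear1 and Rnase2a mark, within the aligned part, bases that differ from Ear2 or have no partner in it.
Ear2: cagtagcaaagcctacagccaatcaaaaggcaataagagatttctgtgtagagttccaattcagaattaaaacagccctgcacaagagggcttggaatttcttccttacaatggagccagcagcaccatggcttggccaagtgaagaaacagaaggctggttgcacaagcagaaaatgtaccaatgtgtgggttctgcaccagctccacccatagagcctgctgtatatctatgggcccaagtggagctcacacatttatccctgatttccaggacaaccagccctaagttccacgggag
Ear1: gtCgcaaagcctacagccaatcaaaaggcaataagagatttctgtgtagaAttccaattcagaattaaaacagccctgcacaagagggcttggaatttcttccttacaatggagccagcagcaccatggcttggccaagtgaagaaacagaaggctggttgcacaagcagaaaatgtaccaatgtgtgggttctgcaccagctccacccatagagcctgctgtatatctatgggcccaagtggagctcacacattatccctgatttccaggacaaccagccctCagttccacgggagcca
Rnase2a: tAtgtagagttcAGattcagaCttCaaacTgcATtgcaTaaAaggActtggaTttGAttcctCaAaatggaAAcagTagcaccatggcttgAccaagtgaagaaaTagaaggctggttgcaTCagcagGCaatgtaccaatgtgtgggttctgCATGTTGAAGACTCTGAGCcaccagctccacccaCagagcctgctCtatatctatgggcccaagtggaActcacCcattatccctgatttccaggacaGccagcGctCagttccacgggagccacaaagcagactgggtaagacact
The windows of Ear2 and Ear1 were identical at 294 of 297 aligned bases (99%), although the level of Ear2 was 65.7-fold higher and that of Ear1 4.37-fold lower with IL-4. The Ear1 window lies at a RefSeq start inside the span counted for Ear1 (chr14:43818765-43875517, minus strand), far from the upstream end of that span. Other starts of Ear1 were not examined. Rnase2a was 87.5% identical to Ear2 over 255 aligned bases. Of the other pairs, Rnase4 and Ang have one and the same window at chr14:51090827-51091126, and Rnase4 has a further one.

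Both strands of all member windows were searched for the palindromes TTCNNNNGAA, the form bound by STAT6, and TTCNNNGAA, the form bound by STAT3, where N is any base. Neither was in a window of the 7 members. Over all 32817 windows of the same length, 6.94% held the former and 8.29% the latter. The letters TATAAA were in no member window either, against 13.6% of all windows, and TTGCAA, a core of C/EBP sites, was only in the further window of Rnase4, against 6.23%. These searches describe 300 bases around a start and say nothing of sites elsewhere.

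Of 16 other genes listed for the RNase A superfamily, 13 were in the table and 4 passed the filter. Rnase2b and Ang2 passed it only through their level with IL-4, and Ang4 only through the controls and IL-4 #1. The values of these genes are given without a test, and Rnase6 was tested. Of all 12824 genes, 13.9% passed the test against control in IL-4-treated Mϕs (limma adjusted p under 0.05 and at least 1 on the log2 scale), 5.38% did in IL-6-treated Mϕs, and 20.4% did when both treatments were compared. Rnase2b, the closest relative of Rnase2a, had 1 fragment in each control library, then 133, 69 and 101 in IL-4 #1 to #3, and 4, 1 and 1 in IL-6 #1 to #3. With IL-4 it was 96.1-fold higher than in control in mean FPKM (log2 fold change of 4.77, SE 0.355). The size of that ratio rests on the 1 fragment in each control library. Its log2 fold change with IL-6 was 0.29 (SE 0.355). In the IL-4 libraries the FPKM of Rnase2b was 0.192% to 0.326% of that of Rnase2a.

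Ang2, an angiogenin relative 88% identical to Ang in coding sequence, was opposite to Ang with IL-4. No fragment of it was counted in control, 52, 53 and 48 were in IL-4 #1 to #3, and 0, 1 and 0 in IL-6 #1 to #3. With IL-4 it was at least 16.5-fold higher, against a floor of 3 fragments per library, and the IL-4 libraries did not overlap the others. In mean FPKM, Ang2 was 1.66 ± 0.306 and Ang 1.43 ± 0.443 with IL-4 (SD, n = 3), and the libraries of both genes overlapped, while in control no Ang2 was detected at this depth. Of the 50-base stretches of Ang2, 5.55% occurred in another gene, most of them in Ang.

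Rnase6, also called RNase k6 and known for antibacterial activity, was detected in every library. It had 3.95, 4.14 and 3.53 FPKM in control #1 to #3, 11.6, 8.55 and 9.66 FPKM in IL-4 #1 to #3, and 2.86, 3.56 and 3.75 FPKM in IL-6 #1 to #3. It rose with IL-4 (log2 fold change of 1.33, SE 0.165, limma adjusted p = 0.0007182) and was lower with IL-6 than with IL-4 (−1.52, limma adjusted p = 0.0002518). Against control, IL-6 gave −0.19 (limma adjusted p = 0.578) and the libraries overlapped.

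Ang4, a microbicidal angiogenin of intestinal Paneth cells, followed the sets of libraries instead. Control #1 to #3 held 57, 44 and 46 fragments of it and IL-4 #1 held 42, while IL-4 #2, IL-4 #3 and every IL-6 library held none. Its log2 fold change with IL-6 was −4.44 (SE 1.02), at least 16.0-fold lower, and a fit with a term for the 2 sets gave −0.24 (SE 0.503). Without any one control or IL-6 library, the log2 fold change stayed between −4.51 and −4.36. With IL-4 it was −3.04 (SE 1.02), and −4.44 without IL-4 #1 (SE 0.338). The 13 intestinal genes had summed levels of 56.1 to 71.3 FPKM in control, 39.7 in IL-4 #1, and 1.32 to 13.1 elsewhere, where the lysozyme gene Lyz1 was nearly all of it. Sets of libraries and the IL-6 treatment cannot be told apart here. Of the genes below the filter, Rnase9 and Rnase11 were listed at 0 in all libraries, and Ear14 had at most 1 fragment. Rnase12 had 7 to 14 fragments in control, 5 to 18 with IL-4 and 1 or 2 with IL-6, and was named after these values were seen, so no test is given.

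**Figure D5:**
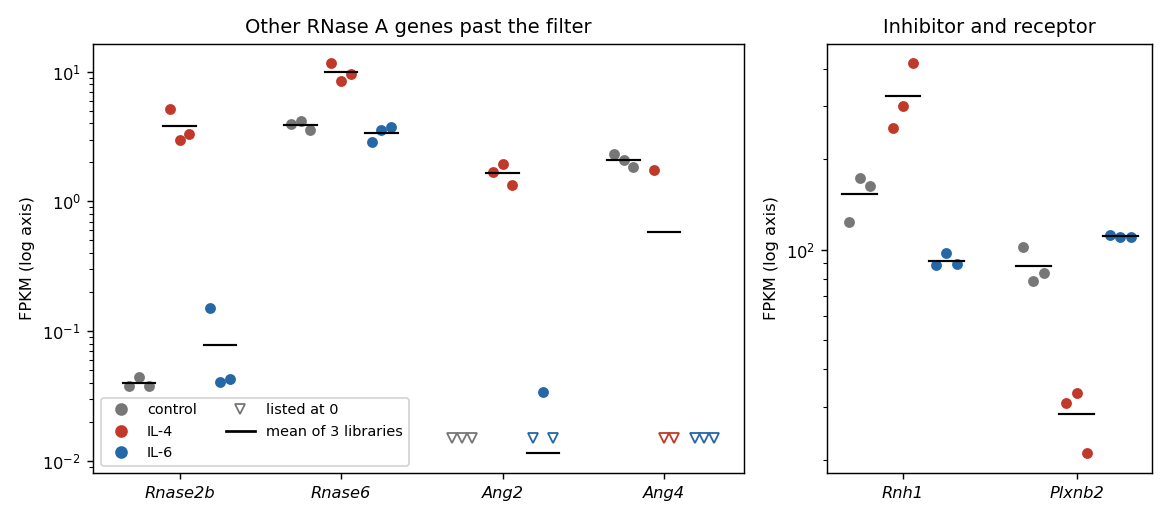
FPKM on log axes (vertical) in each library of the 4 other RNase A genes past the filter (left) and of Rnh1 and Plxnb2 (right), with group means as black lines and open triangles for values listed at 0. Rnase2b, Rnase6 and Ang2 are highest with IL-4, and Ang4 is seen only in the 3 controls and IL-4 #1.

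Among 7 genes that act on these enzymes or beside them, 1 passed as higher and 1 as lower with IL-4, and none passed with IL-6 against control. Rnh1 encodes the cytosolic inhibitor that binds RNase A family proteins, and had 123, 174 and 162 FPKM in control #1 to #3, 254, 301 and 416 FPKM in IL-4 #1 to #3, and 88.9, 97.2 and 89.6 FPKM in IL-6 #1 to #3. It rose with IL-4 (log2 fold change of 1.07, SE 0.203, limma adjusted p = 0.006537), the call was at the fold threshold, and it ended without control #1 (0.92), without IL-4 #3 (0.87), under quantile normalization (0.78) and with a term for the 2 sets (0.75, limma adjusted p = 0.115). Against control, IL-6 gave −0.72 (limma adjusted p = 0.07158), and against IL-4 it gave −1.79 (limma adjusted p = 0.0003546). Rnh1 was thus highest in the libraries with most Rnase2a and Ear2.

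Plxnb2, a plexin that serves as a receptor for angiogenin, went the other way. It had 102, 78.6 and 83.3 FPKM in control #1 to #3, 31.0, 33.3 and 21.0 FPKM in IL-4 #1 to #3, and 111, 111 and 110 FPKM in IL-6 #1 to #3. It fell with IL-4 (log2 fold change of −1.65, SE 0.185, limma adjusted p = 0.0004682) and was higher with IL-6 than with IL-4 (1.99, limma adjusted p = 0.0001231). Its IL-4 libraries were below all others, while those of the ligand gene Ang overlapped the IL-6 libraries. The lysosomal nucleases Rnaset2a, Rnaset2b, Pld3, Pld4 and Dnase2a passed in no comparison, since none reached the fold threshold. Some were under 0.05 in adjusted p with smaller differences. Against control, Pld4 gave −0.60 with IL-4 (limma adjusted p = 0.009326) and −0.68 with IL-6 (limma adjusted p = 0.01269). Pld3 gave −0.79 with IL-6 (limma adjusted p = 0.008695). Between IL-6 and IL-4, Pld3 gave −0.40 (limma adjusted p = 0.04669) and Dnase2a −0.68 (limma adjusted p = 0.03523).

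The genes whose pattern over the 9 libraries was nearest to each member were found by the root mean square difference (RMS) of log2(FPKM + 0.1) after centring, among 12814 genes outside the family. For Rnase2a they were Retnla (RMS 0.502) and Arg1 (RMS 0.686), an arginase of IL-4-treated Mϕs, with means of 4.56, 15866 and 24.5 FPKM for Retnla and 0.577, 1044 and 3.62 FPKM for Arg1 in control, IL-4 and IL-6. For Ear2 they were Mgl2, a C-type lectin (RMS 0.484), and the annotated gene Gm4610 (RMS 0.510). The RMS between Ear2 and Rnase2a was 2.10. For Ear6 they were Gm17967 (RMS 0.387) and Epx, the eosinophil peroxidase (RMS 0.459). For Ear1 they were Gm42517 (RMS 0.369) and Plxna4os1 (RMS 0.447). Rnase4 lay nearest to C77080 (RMS 0.122) and Slc46a3 (RMS 0.160), and Ang nearest to Sfxn4 (RMS 0.219) and Tmem86a (RMS 0.226). The RMS between Rnase4 and Ang was 0.506. Since the nearest genes are picked from 12814, nothing is read from a family member lying further off. Likeness over these 9 libraries is a description and shares their depth and treatment.

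Markers of other marrow cells differed between the groups as well. All 6 eosinophil genes listed (Epx, Prg2, Prg3, Siglecf, Ccr3 and Il5ra) were above 3 fragments in at least 1 library, and their summed level was 72.4 to 169 FPKM in control, 16.9 to 22.7 with IL-4 and 19.9 to 31.8 with IL-6, most of it Prg2. Ear1 and Ear6 were, like this sum, higher in every control than in any treated library, and the part of eosinophil RNA in their levels was not tested. Rnase2a and Ear2 were high with IL-4, where this sum was low, but it was also low with IL-6, where they were not. The part of eosinophil RNA in their levels was not tested. Of the same list, Siglecf went the other way with IL-4, with 1.41 to 4.03 FPKM, against 1.28 to 1.40 in control and 0.878 to 1.07 with IL-6. Ccr3 and Il5ra were below control in every IL-4 library but overlapped control with IL-6. Ccr3 had 1.31 to 3.72 FPKM with IL-6 and 2.56 to 5.07 in control. The highest Il5ra value, 0.176 FPKM, was in an IL-6 library. The 8 neutrophil and granulocyte precursor genes summed to 938 to 1618 FPKM in control, 330 to 509 with IL-4 and 1476 to 2097 with IL-6. Of 6 mast cell and basophil genes, Cpa3, Mcpt8 and Cma1 were above 3 fragments in some library, Prss34 had values but no recovered fragments, and Mcpt4 and Tpsb2 were listed at 0 throughout. Their sum was 42.9 to 74.7 FPKM with IL-4, 11.9 to 27.5 in control and 5.26 to 21.6 with IL-6. That list was thus highest with IL-4, as Rnase2a and Ear2 were, and its part in their levels was not tested. In bulk RNA, fewer cells of a type and less RNA per cell cannot be told apart.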

How the data were processed

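RNA-seq of 9 libraries of mouse BM-derived Mϕs was analysed, with 3 libraries in each group. The values are FPKM, which the authors deposited as 1 table of 53379 genes. Per the study's methods and processing notes, reads were aligned with STAR 2.4.2a to GRCm38 and FPKM were made with Cufflinks 2.2.1. A filter on genes, and whether counting used strand in this stranded kit, are not given in the sources used here. Multiplied out with GENCODE M21 exon lengths and a total per library, 183346 nonzero values were checked, and 100% lay within 0.05 of a whole fragment. Totals read from them were 29988160 to 39909571 per library, and 3 fragments were taken as the floor, for counting error only. The program that made the table may thus differ from the one named.

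FPKM were analysed as log2(FPKM + 0.1) for 12824 genes with a mean of at least 0.5 FPKM, in 1 fit over all 3 groups (limma 3.58.1 with trend and robust settings, R 4.3.3, Benjamini-Hochberg adjustment). Passing required an adjusted p under 0.05 together with a 2-fold difference in either direction on that scale. The p-values measure the spread between these cultures. The 7 members, the gene lists and the tests were chosen with earlier results of these data known, and the members got no test. Rnase2b, Ang2 and Ang4 got none either, since they passed the filter only through the libraries in which they were high. Genes named beside the members were the other listed RNase A genes past the filter and Ang2, Ang4, Rnase2b and Ear14 at any level, 7 partners, 2 treatment checks, and for each member past the filter the 2 genes nearest in pattern. A further partner gene is not reported here. Rnase9, Rnase11 and Rnase12 were named after their values were seen. The 2 sets of libraries were defined after the values were seen, by more or less than 0.5 of the intestinal list being above the floor. Coding sequences came from GENCODE M21 and start-site windows from RefSeq (GRCm38.p6), which had a window for all 7 members. Coding bases were compared in place of proteins, which were not used here. Alternatives were other pseudocounts and filters, median-ratio rescaling, quantile normalization, both groups alone, the mouse number as a block, a term for the 2 sets, leaving out each library, limma voom on recovered fragments and the adjusted p alone. Column names number the mice 1 to 3 in each group and the design names 3 mice, which was read as the same mice throughout. The labels do not say so, and the main fit had no term for the mouse. The p-values printed here thus do not use this pairing. Correlations of same-numbered deviations from group means over 12824 genes were 0.521, −0.415 and 0.0777 between IL-4 and control, 0.408, 0.201 and 0.166 between IL-6 and control, and 0.281, −0.0612 and 0.153 between IL-6 and IL-4.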

Additional observations from a re-analysis of the deposited data

How the results depend on the processing

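Members at least 2-fold apart with no overlap kept their direction in every alternative. The counts of genes past the test, 1784 for IL-4, 690 for IL-6 and 2613 for IL-6 against IL-4, moved most with a mean of at least 5 FPKM (847, 306 and 1219, from fewer genes tested), with the adjusted p alone (3186, 1077 and 4375) and, for the first pair, with a term for the 2 sets (1111 and 187), whose cause was not tested. Leaving out each library gave 1450 to 2150 for IL-4, 387 to 1001 for IL-6 (387 without control #3, 408 without IL-6 #3, 424 without IL-6 #2, 445 without control #2, 1001 without IL-4 #3) and 2124 to 3274 between both. Median-ratio rescaling moved the share of higher genes among those that passed with IL-4 from 36.1% to 48.8%, and between IL-6 and IL-4 from 66.5% to 54.5%. Quantile normalization gave 49.3% and 50.9%, and the term for the 2 sets gave 46.2% with IL-4 and 78.6%, against 64.8%, with IL-6. With the mouse number as a replicate block 1788, 656 and 2734 genes passed, and no call on a gene named here changed. Signs turned for Rnase6 with IL-6 in the fit with a term for the 2 sets (0.15) and for Rnaset2b with IL-4 under median-ratio rescaling (0.0455), neither of which passed in any setting. Dnase2a (IL-4), Socs3 (IL-4), Rnaset2a and Pld4 (both IL-6 against IL-4), whose differences were smaller than their standard errors, also turned sign in 1 to 4 settings each. The members at least 2-fold apart were 6 or 7 with IL-4, 3 to 6 with IL-6 and 3 or 4 between both when a library was left out. With the term for the 2 sets, the log2 fold change of Ang4 was −0.24 with either cytokine, from −4.44 with IL-6 and −3.04 with IL-4. With a pseudocount of 1 or 0.01 it was −1.62 or −7.70 with IL-6. Depth limits Ear10, Rnase2b, Ang2 and Ang4, which rest on few fragments.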
